A study of Mus musculus with 6 samples.

Results

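The matrix metalloproteinases (MMPs), the ADAM and ADAMTS metalloproteinases, the ADAMTS-like proteins and the tissue inhibitors of metalloproteinases (TIMPs) were followed across male and female Müllerian duct mesenchyme of the mouse. Members were every gene whose symbol was Mmp with a number and at most a letter a or b, Adam, Adamts or Adamtsl with a number, or Timp1 to Timp4. They came to 78 of the 37991 gene identifiers in the count tables. YFP-positive cells were sorted at embryonic day 14.5 and their RNA sequenced in 3 libraries from males and 3 from females, each made from cells pooled from 2 to 7 embryos. Both sexes had the genotype Amhr2Cre/+, R26R YFP/+ on a mixed C57BL/6J x 129/SvEv background, so the males and the females alike carried a Cre allele at 1 of their Amhr2 loci. YFP marks any cell with present or past Amhr2-Cre activity, and gonadal cells that used Amhr2 could enter the same sort. In bulk libraries of this kind, fewer cells of a type and less RNA per cell cannot be told apart.

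MMPs cut collagens and other matrix proteins, and some are anchored to the membrane while most are secreted as inactive precursors. ADAMs sit in the membrane and release growth factors and receptor domains from the cell surface, ADAMTS enzymes are secreted and cut proteoglycans or trim procollagens, and ADAMTS-like proteins lack the protease domain. TIMPs block the active site of MMPs, and Timp3 also inhibits several ADAM and ADAMTS enzymes. The Müllerian duct regresses in males under anti-Müllerian hormone, which acts on the mesenchyme through the receptor Amhr2, and Mmp2 is known from the rat as a gene that takes part in that regression. By its title the study deals with osterix, a transcription factor encoded by Sp7, in that response, and the comparison of male with female mesenchyme asks which genes differ while the male duct is exposed to it.

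The feature that unites the active enzymes is a zinc-binding site made of a histidine, a glutamate and a pair of further histidines at fixed distances. It is shown here in the coding sequence of the members on which the results turn, taken from the GENCODE M21 transcripts (GRCm38), coding strand, 5′ to 3′. Capitals mark the codons of the histidines and of the glutamate, and lower case the codons between them.
Adam12: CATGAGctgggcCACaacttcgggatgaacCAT
Adam19: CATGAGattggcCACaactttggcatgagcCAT
Mmp19: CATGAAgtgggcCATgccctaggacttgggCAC
Mmp2: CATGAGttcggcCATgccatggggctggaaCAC
Mmp14: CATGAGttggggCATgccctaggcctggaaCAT
Adamts5: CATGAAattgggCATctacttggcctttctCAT
Adamts9: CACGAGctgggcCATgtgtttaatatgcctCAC
Adamts14: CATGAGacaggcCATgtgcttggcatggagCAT
The 33-base site was found in the longest coding transcript of 57 of the 78 members. It was in 22 of 23 MMPs (16 of 17 secreted and 6 of 6 membrane-type, Mmp1a having it in a shorter transcript), in all 9 ADAMs listed as catalytic, in 7 of 18 other ADAMs and in all 19 ADAMTS genes. None of the 5 ADAMTS-like genes and none of the 4 TIMPs had it. Of the 51 members with enough counts to test, 39 had the site, and the 4 tested ADAMs of the second list, Adam5, Adam11, Adam22 and Adam23, were without it.

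Libraries held 22511872 to 24749859 counts in genes, and 1 count was worth 0.0367 to 0.0494 CPM (the usual count scaled to library size, here with TMM factors). The labels call the replicates biological, and each is a pool of embryos, so p-values measure the spread between pools and their libraries together. That spread includes the differences between replicates along GC content given below, which the reported fit does not model. Markers of the labelled tissue were present in all 6 libraries, with Amhr2 between 160 and 462 CPM in male and 324 and 784 CPM in female libraries. None of the 8 mesenchyme markers passed the test, which does not show equal levels. The sexes did not overlap in Wnt4 and Pdgfra, with log2 fold changes of male over female of 1.96 and 1.07, or in Twist1, with −0.98. The replicate 1 libraries of both sexes stood apart from the replicate 2 libraries along the GC content of the transcripts, and the members followed that split. Across the 51 tested members, the log2 ratio of replicate 1 over replicate 2 (CPM plus 0.5) had a Pearson correlation with GC content of −0.80 in male and −0.81 in female libraries. For replicate 1 over replicate 3 the correlation was −0.74 in male and −0.71 in female libraries. For replicate 2 over replicate 3 it was 0.525 in male and 0.76 in female libraries. The log2 fold change of male over female correlated with GC content at −0.05 over these members. Over the 14674 tested genes with a GC value that correlation was 0.16. These values describe genes that share the same libraries. Members with low GC content such as Adam10 were higher in replicate 1, and members with high GC content such as Mmp2 were lower there.

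**Figure D1:**
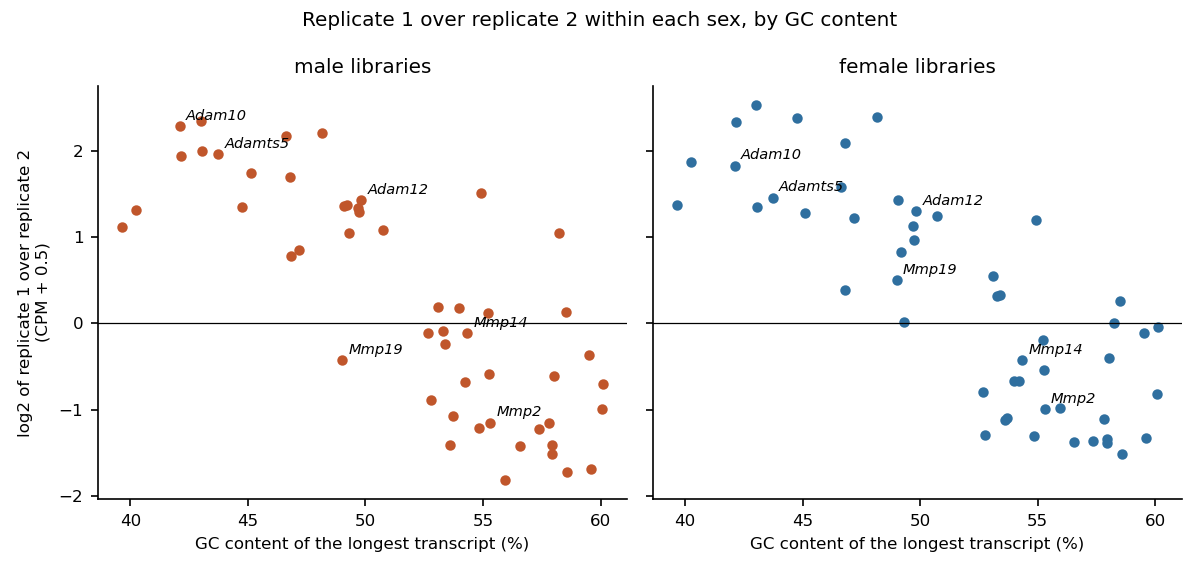
The log2 ratio of replicate 1 over replicate 2 (CPM plus 0.5, y axis) is plotted against the GC content in percent of the longest transcript (x axis) for the 51 tested members, in male libraries on the left and female libraries on the right. Each point is a member, and in both panels the ratio falls as GC content rises.

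Mmp2, which encodes gelatinase A, was the most abundant member by far. Per kilobase of the longest transcript its level was 638 RPKM (CPM per kilobase) in male and 414 RPKM in female libraries. Next came Mmp14, the membrane-type enzyme that activates the Mmp2 precursor, with 109 RPKM in male and 86.9 RPKM in female libraries, and then Mmp11, Timp2, Adamts10 and Timp3. Mmp2 alone made up 28.2% to 48.6% of the summed CPM of the family in male libraries and 28.5% to 42.5% in female libraries. In all, 13 members averaged at least 10 RPKM and 41 at least 1 RPKM. The family took 0.431%, 0.456% and 0.478% of the counts in male replicates 1 to 3, against 0.318%, 0.349% and 0.385% in female replicates 1 to 3, with no overlap between the sexes.

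**Figure D2:**
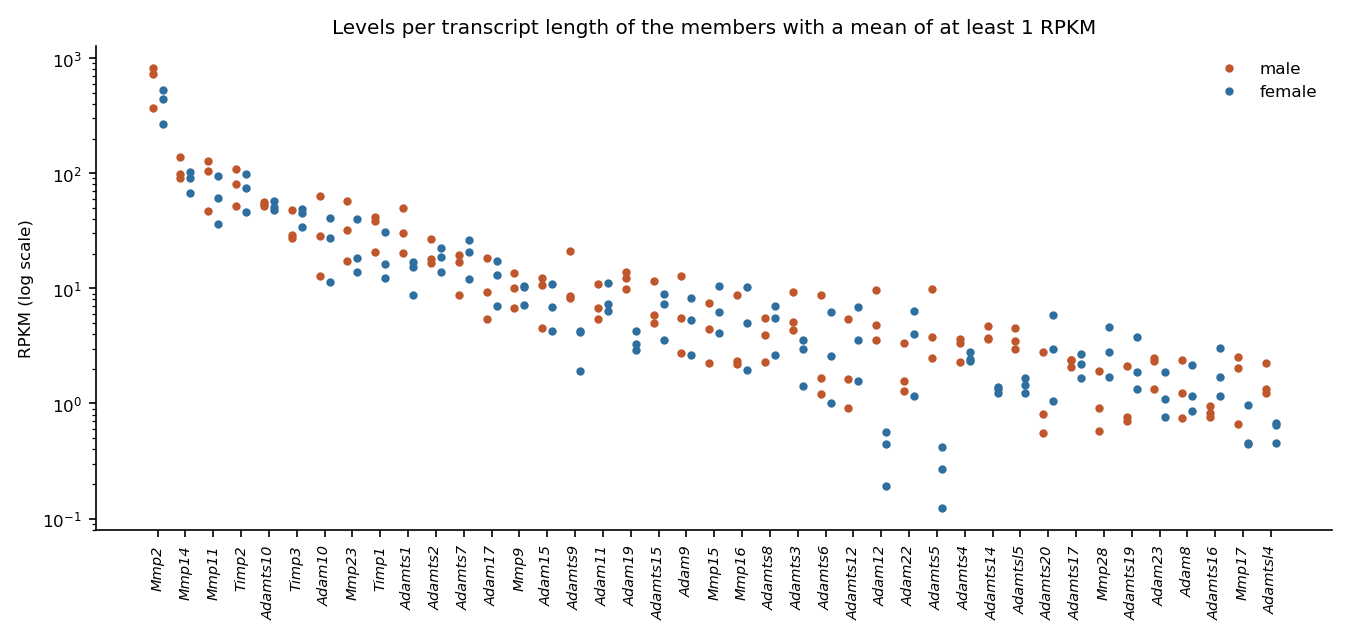
Levels per transcript length (RPKM, log scale) are plotted for the 41 members with a mean of at least 1 RPKM, in order of that mean, with each library a point, male left and female right. Mmp2 stands above all others, and the lowest points are female libraries of Adamts5 and Adam12.

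The other 27 members did not pass the filter on low counts, and 9 of them had no count in any library. The untested members included 9 of the 10 MMP genes on chromosome 9. Apart from Mmp12, a macrophage elastase with 116 counts over the 6 libraries, these genes held 17 counts among 9 members. They include the stromelysin genes Mmp3 and Mmp10 and the collagenase genes Mmp1a, Mmp8 and Mmp13, most of which are induced in inflammation or wounding. Of the 18 ADAMs outside the catalytic list, most of them known from testis and sperm, 14 went untested, as did Adamts13, Mmp21, Mmp24 and Timp4. Among the untested members the highest value in any library was 1.36 CPM.

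Among the 51 tested members, 2 rose in male mesenchyme, none fell and 49 did not pass. These were Adam12 and Mmp19, 3.92% of the tested members, where 0.841% of all 15227 genes tested were called higher and 0.387% lower (edgeR quasi-likelihood test, Benjamini-Hochberg adjusted over all genes, threshold 0.05). An unadjusted p under 0.05 was found for 14 of the 51 members and for 1398 of the 15227 genes tested. Positive log2 fold changes (log2FC, male over female) made up 35 of 51 members, or 68.6%, against 49.5% of all genes tested, and the median was 0.31 against −0.01. All 3 male libraries lay above all 3 female libraries in 12 members, or 23.5%, against 6.47% of all genes tested. The opposite held for 1 member, or 1.96%, against 7.27%. Of the tested members, Mmp19 and Adamtsl3 reached the filter's floor, applied before TMM scaling, in all male libraries but not in all female ones. Female replicate 2 was the library below it, with 6 counts of Mmp19 and 9 counts of Adamtsl3.

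**Figure D3:**
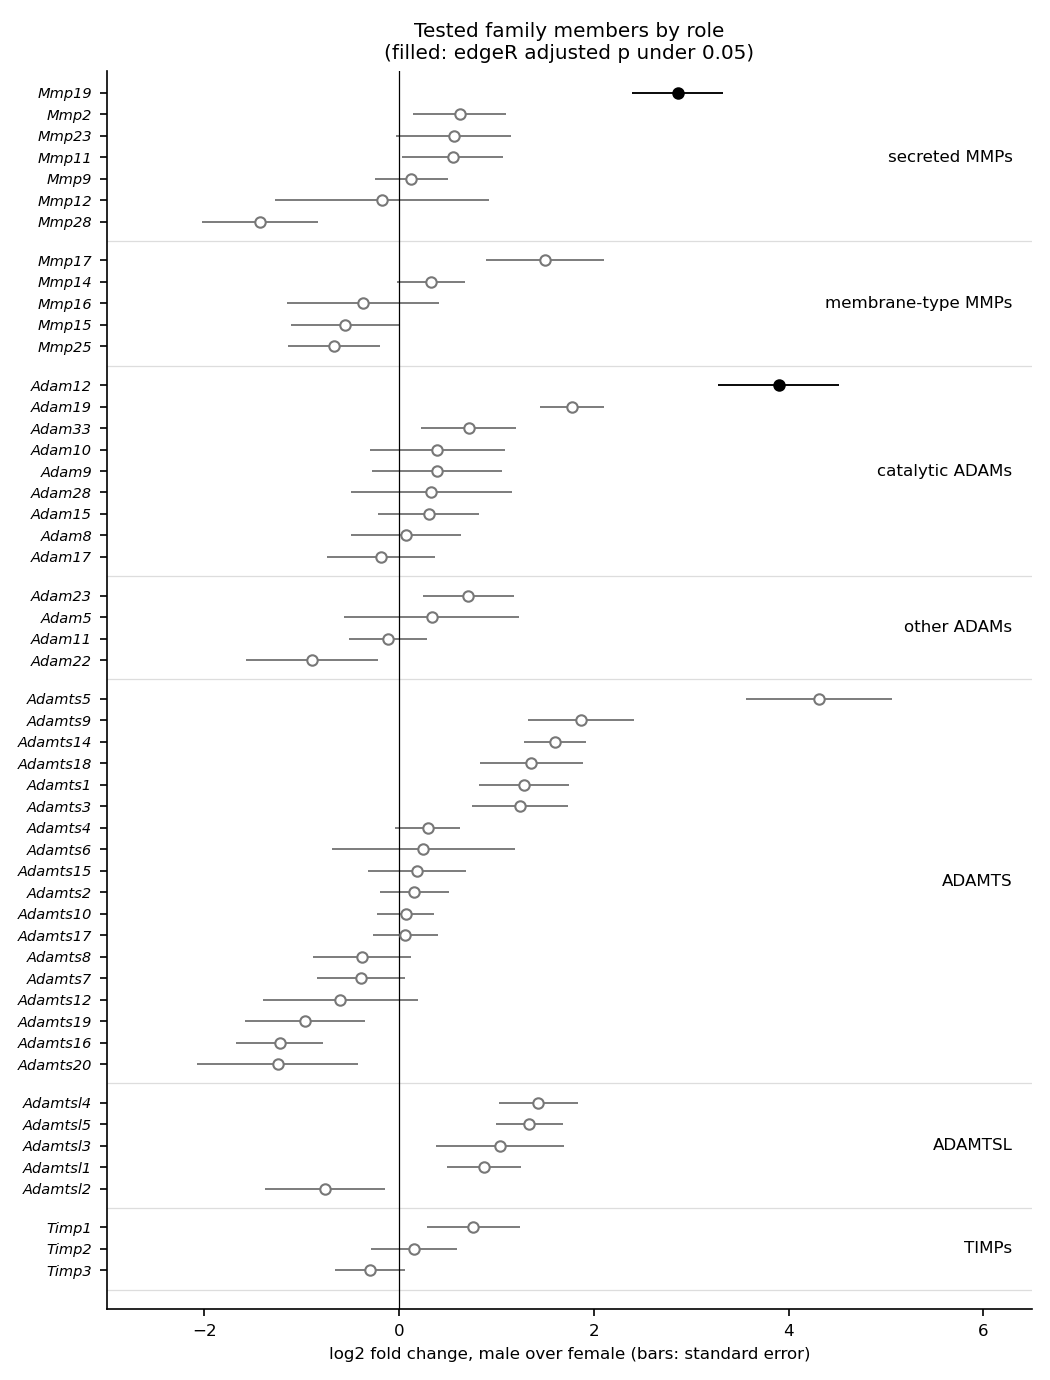
The log2FC of male over female libraries (x axis, bars give the standard error) is plotted for the 51 tested members, grouped by role. Filled points, Adam12 and Mmp19, passed the adjusted p threshold of 0.05.

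Adam12 encodes a membrane metalloproteinase of embryonic mesenchyme and muscle precursors that can release EGF-family growth factors. It stood at 74.0, 27.1 and 37.1 CPM in male replicates 1 to 3, against 4.37, 1.48 and 3.40 CPM in female replicates 1 to 3. The lowest male library was over the highest female one, and in both sexes replicate 1 was highest and replicate 2 lowest. Means were 46.1 ± 24.7 CPM in male and 3.08 ± 1.47 CPM in female libraries (SD, n = 3 each), a log2FC of 3.90 ± 0.62 (SE, edgeR adjusted p = 0.0433). With 1 library left out the log2FC lay between 3.37 and 4.24. The call was lost without male replicate 2 (adjusted p = 0.0905), male replicate 3 (0.197), female replicate 1 (0.111), female replicate 2 (0.0923) or female replicate 3 (0.281).

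Mmp19 encodes a secreted MMP that cuts basement membrane components. Its values were 3.37, 4.70 and 4.04 CPM in male replicates 1 to 3, against 0.625, 0.295 and 0.720 CPM in female replicates 1 to 3. The sexes did not overlap, and the male libraries lay close together. The log2FC was 2.86 ± 0.47 (SE, edgeR adjusted p = 0.0452), with 4.04 ± 0.665 CPM in male and 0.547 ± 0.223 CPM in female libraries (SD, n = 3 each). It rests on 279 male and 41 female counts, and leaving out any 1 of the 6 libraries ended the call (adjusted p from 0.0555 to 0.255, log2FC from 2.58 to 3.11). The kit does not mark strand, and Mmp19 has an exon that overlaps Tmem198b on the other strand. Strand cannot assign reads from the shared stretch, and counts on more than 1 gene stayed out of the tests. The counting strand is not given, and the effect of the overlap on the counts of either gene was not tested. Tmem198b was at 28.0, 67.9 and 38.1 CPM in male and 19.7, 44.0 and 28.8 CPM in female libraries, a log2FC of 0.53 ± 0.47 (SE) that did not pass.

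**Figure D4:**
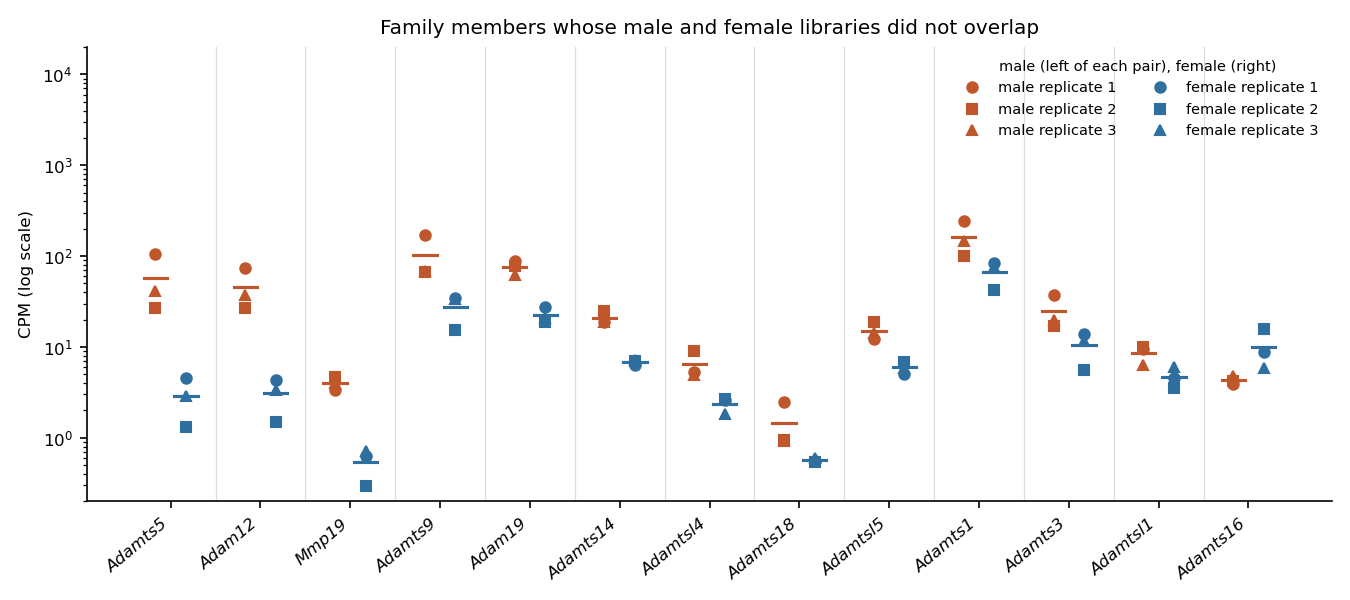
CPM on a log scale is plotted for each library of the 13 members whose male and female libraries did not overlap, male left and female right of each gene, with bars at the means. Adamts16 is the member whose male points lie below its female points.

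Adamts5 had the largest log2FC of the tested members and missed the threshold. Its product is an aggrecanase that cuts the proteoglycans aggrecan and versican. Values were 106, 26.9 and 41.0 CPM in male replicates 1 to 3, against 4.52, 1.33 and 2.88 CPM in female replicates 1 to 3. Replicate 1 was again the highest in both sexes, and the lowest male library exceeded the highest female library. The log2FC was 4.31 ± 0.75 (SE, edgeR adjusted p = 0.0564). Without male replicate 1 it was 3.54 and passed (adjusted p = 0.0450). It also passed with no filter on low counts (0.0177), with limma-voom (0.0370), with DESeq2 (1.73e-08), in edgeR without robust estimation (0.0477) and with an offset for GC content and transcript length (0.000480). It did not pass with RLE scaling (0.0541), with upper quartile scaling (0.0559), with a filter at 1 CPM (0.0584) or without any 1 of the other 5 libraries (0.0939 to 0.337).

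None of the other proteoglycan-cutting ADAMTS genes passed, and they were higher in male by less than Adamts5 or lower in male. Adamts9, whose product cuts versican, had 170, 66.6 and 68.1 CPM in male replicates 1 to 3, against 34.2, 15.3 and 33.7 CPM in female replicates 1 to 3. That gave a log2FC of 1.87 ± 0.54 (SE, edgeR adjusted p = 0.236), and the sexes did not overlap. For Adamts1, a versican-cutting enzyme needed for ovulation and kidney development, male libraries held 243, 99.1 and 148 CPM and female libraries 83.0, 42.3 and 75.6 CPM, a log2FC of 1.29 ± 0.46 (SE, adjusted p = 0.406). Adamts1, Adamts3, Adamts16 and Adamts18 are named because their sexes did not overlap, a choice made after their values were seen. Over the 7 proteoglycan-cutting genes the median log2FC was 0.30, with 5 positive and 2 negative. The more negative of the 2 was Adamts20, at −1.25 ± 0.83 (SE), and its sexes overlapped.

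The 3 ADAMTS genes that remove the amino-terminal propeptide of fibrillar procollagens all had positive log2FC, with a median of 1.24, and none passed. Adamts14 held 19.0, 24.6 and 19.0 CPM in male and 6.39, 6.93 and 7.24 CPM in female libraries. The groups were tight and well apart, with a log2FC of 1.60 ± 0.32 (SE, edgeR adjusted p = 0.0717). Adamts3 was at 36.9, 17.1 and 20.0 CPM in male and 13.9, 5.61 and 11.7 CPM in female libraries, a log2FC of 1.24 ± 0.49 (SE, adjusted p = 0.498). Adamts2, the most abundant of the 3 per length, differed by less than its spread, at 148 ± 39.5 CPM in male and 133 ± 30.3 CPM in female libraries (SD, n = 3 each).

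Of the remaining ADAMTS genes, Adamts10, whose product binds fibrillin microfibrils, varied little. It had 234, 214 and 222 CPM in male and 235, 196 and 209 CPM in female libraries, a log2FC of 0.07 ± 0.29 (SE). Adamts16 was the 1 tested member with all male libraries below all female libraries, at 3.86, 4.20 and 4.85 CPM in male against 8.74, 15.6 and 5.92 CPM in female. Its log2FC was −1.23 ± 0.44 (SE, edgeR adjusted p = 0.410). Adamts18 stood at 2.49, 0.939 and 0.927 CPM in male and 0.551, 0.541 and 0.600 CPM in female libraries, and its log2FC of 1.36 did not pass either. All other tested ADAMTS genes had sexes that overlapped.

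ADAMTS-like proteins bind the extracellular matrix, several of them fibrillin microfibrils, without cutting it. None of the 5 genes passed, and the median log2FC was 1.04. In 3 of them all male libraries lay above all female libraries, as they did in 6.47% of all genes tested. Adamtsl5 was at 12.1, 18.7 and 14.2 CPM in male and 5.07, 6.83 and 5.92 CPM in female libraries, a log2FC of 1.34 ± 0.35 (SE, edgeR adjusted p = 0.167). Adamtsl4, which is needed for the fibres that hold the lens in humans, had 5.35, 9.05 and 4.93 CPM in male and 2.61, 2.70 and 1.84 CPM in female libraries. Its log2FC of 1.43 ± 0.41 (SE) had an adjusted p of 0.219. Adamtsl1 was at 9.41, 10.03 and 6.40 CPM in male and 4.56, 3.54 and 6.04 CPM in female libraries, so its lowest male library lay just above its highest female one. Its log2FC was 0.87 ± 0.38 (SE, adjusted p = 0.574).

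Among the catalytic ADAMs besides Adam12, Adam19 lay closest to the threshold. Adam19, a relative of Adam12 that is required for heart development, stood at 89.3, 78.0 and 62.4 CPM in male replicates 1 to 3, against 27.4, 18.6 and 21.0035 CPM in female replicates 1 to 3. The lowest male library lay far above the highest female library, with a log2FC of 1.78 ± 0.33 (SE, edgeR adjusted p = 0.0635). It passed with DESeq2 (7.42e-05) and with the GC content and length offset (0.00655). Adam10 and Adam17, the main shedding enzymes of Notch receptors and of TNF, showed no such separation. Adam10 ranged from 58.9 to 290 CPM in male and from 52.0 to 186 CPM in female libraries, and its log2FC of 0.39 ± 0.70 (SE) was smaller than that spread. Exons of genes on the other strand also overlap Adam17, Adam19 and Adamts9. Adam17 had a log2FC of −0.18 ± 0.55 (SE) and Adam33 one of 0.71 ± 0.49 (SE).

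The ADAMs without a zinc site that were expressed here are Adam11, Adam22 and Adam23, known as adhesion proteins and LGI receptors of neurons, and the sperm gene Adam5. Adam22 was at 30.8, 11.8 and 14.5 CPM in male and 58.3, 10.8 and 37.0 CPM in female libraries. Both groups spanned a wide range and overlapped, with a log2FC of −0.89 ± 0.68 (SE). Adam23 had a log2FC of 0.71 ± 0.46 (SE), Adam11 of −0.11 ± 0.40 (SE) and Adam5 of 0.34 ± 0.90 (SE), and none of the 4 passed.

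The activation axis of Mmp2, Mmp14 and Timp2 did not separate the sexes in this test. Mmp2 had 1127, 2502 and 2261 CPM in male replicates 1 to 3, against 823, 1642 and 1362 CPM in female replicates 1 to 3. Replicate 1 was the lowest in both sexes, and the lowest male library lay below 2 of the 3 female libraries. The log2FC was 0.62 ± 0.47 (SE) and did not pass in edgeR. Mmp14 stood at 293, 317 and 452 CPM in male and 218, 294 and 332 CPM in female libraries, with a log2FC of 0.33 ± 0.35 (SE). Timp2, which both inhibits MMPs and bridges Mmp14 to the Mmp2 precursor, had 193, 406 and 301 CPM in male and 170, 364 and 275 CPM in female libraries, a log2FC of 0.15 ± 0.44 (SE). Per transcript length, the ratio of Timp2 to Mmp2 was 0.142, 0.135 and 0.111 in male and 0.171, 0.184 and 0.168 in female libraries. The ratio was thus lower in each male library than in any female library, a description for which no test was made. The ratio of Timp2 to Mmp14 overlapped, at 0.576, 1.12 and 0.582 in male and 0.680, 1.08 and 0.724 in female libraries. So did that of the summed TIMPs to the summed MMPs, at 0.222, 0.157 and 0.146 in male and 0.251, 0.207 and 0.215 in female libraries.

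None of the other secreted MMPs passed. Mmp11, a stromelysin-like enzyme of stromal cells, had 108, 291 and 241 CPM in male and 82.5, 215 and 139 CPM in female libraries, a log2FC of 0.55 ± 0.52 (SE). Mmp9, gelatinase B, was at 21.3, 32.2 and 43.0 CPM in male and 22.6, 32.9 and 32.9 CPM in female libraries, with a log2FC of 0.13 ± 0.38 (SE). Mmp28, also called epilysin, had 1.99, 6.57 and 3.16 CPM in male against 5.80, 15.98 and 9.68 CPM in female libraries. Its log2FC of −1.43 ± 0.59 (SE, edgeR adjusted p = 0.541) was the most negative of the tested members, and with the GC content and length offset it was −1.62 and passed (0.0241). Exons on the other strand overlap Mmp11 (Chchd10, at most 7.54 CPM in male and 14.4 CPM in female libraries) and Mmp28 (1700020L24Rik, at most 0.843 CPM in male and 2.07 CPM in female libraries).

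Of the membrane-type MMPs other than Mmp14, Mmp17 had the smallest p. This GPI-anchored enzyme stood at 4.28, 16.4 and 13.1 CPM in male and 2.90, 6.20 and 2.88 CPM in female libraries, a log2FC of 1.50 ± 0.61 (SE, edgeR adjusted p = 0.513). Male replicate 1 lay within the female range. Mmp15 had a log2FC of −0.56 ± 0.55 (SE) and Mmp25, on 27 male and 46 female counts, one of −0.67 ± 0.47 (SE). None of the 5 tested genes of the group passed.

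The TIMPs did not pass. Timp1, an X-linked and inducible inhibitor, was at 18.2, 34.0 and 36.5 CPM in male and 10.8, 27.0 and 14.5 CPM in female libraries, with male replicate 1 inside the female range and a log2FC of 0.76 ± 0.48 (SE, edgeR adjusted p = 0.915). Timp3, which is held in the matrix, had 224, 130 and 137 CPM in male and 211, 162 and 231 CPM in female libraries, a log2FC of −0.30 ± 0.36 (SE). Exons of Timp3 overlap exons of Syn3 on the other strand, which held 2.74 to 5.16 CPM in male and 2.31 to 5.51 CPM in female libraries. Timp4 held too few counts to test, with at most 0.395 CPM in a male and 0.197 CPM in a female library.

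How many members passed depended on the method. DESeq2 called 8 members higher and none lower, where it called 2.92% of all genes higher and 2.15% lower. With the GC content and length offset in edgeR, 7 were higher and 1 was lower, with 3.02% of all genes called higher and 2.92% lower. Over all genes the calls were 460 higher and 445 lower with the offset, and 128 higher and 59 lower without it. Adam12, Mmp19, Adamts5, Adam19, Adamts14, Adamts9 and Adamtsl5 were called higher in both, Adamtsl4 in DESeq2 and Mmp28 as lower with the offset.

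**Figure D5:**
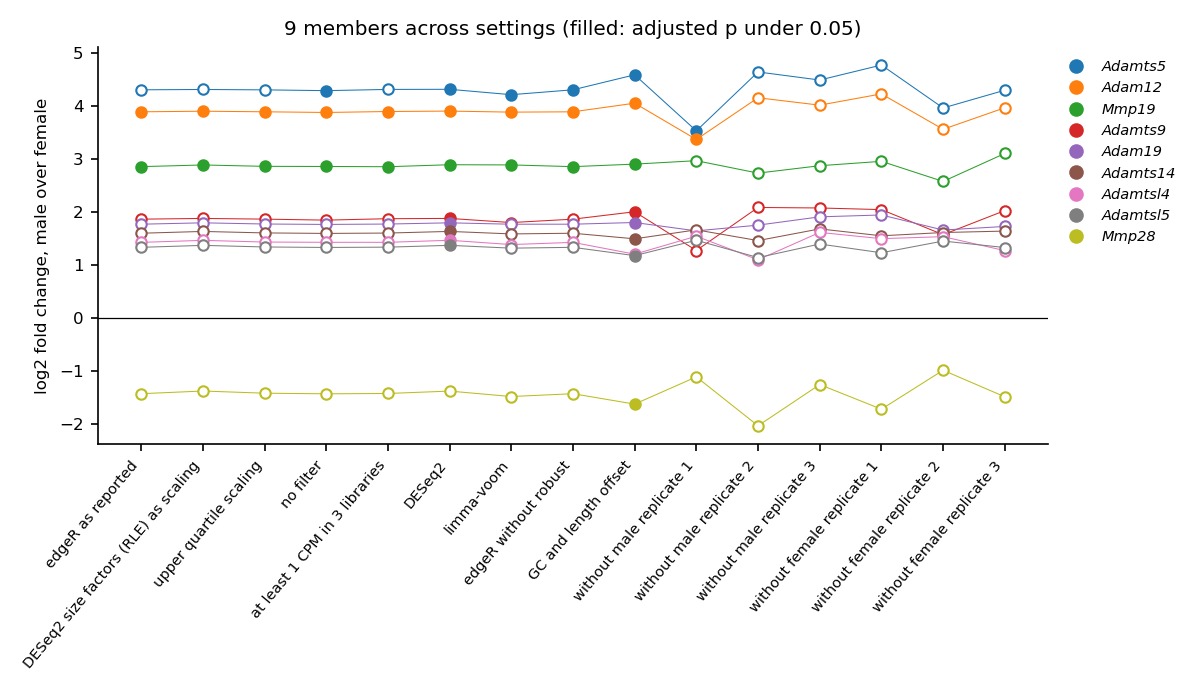
The log2FC of male over female (y axis) is plotted for the 9 members called by at least 3 alternatives that keep all libraries. The x axis holds the reported fit and the alternative settings without a replicate block. Filled points mark an adjusted p under 0.05. The members were chosen by calls that include settings shown here, so a steady sign is partly built in. The order of the first 3, Adamts5, Adam12 and Mmp19, holds in each setting shown, and no member crosses 0.

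Genes that act with the family were read from 2 lists drawn up by function. Over all genes tested, 0.841% were called higher and 0.387% lower. Of 35 tested activators, inhibitors and cofactors, 1 fell, none rose and 34 did not pass, with a median log2FC of −0.09. The gene that fell was Spock1, a matrix proteoglycan of the testican group, which held 0.115, 0 and 0.0843 CPM in male and 1.84, 3.93 and 3.16 CPM in female libraries (log2FC −5.31 ± 0.79 SE, edgeR adjusted p = 0.0374). It passed the filter on low counts only through the female libraries, so it had to differ to be tested. It rests on 5 male counts, so the size is uncertain, and the call was kept without male replicate 1 and lost without any other single library (edgeR adjusted p from 0.0811 to 0.254). Furin, the convertase that activates many ADAM, ADAMTS and membrane-type MMP precursors, had 158, 389 and 331 CPM in male and 55.7, 115 and 99.3 CPM in female libraries, a log2FC of 1.70 ± 0.48 (SE, adjusted p = 0.219). Furin passed with DESeq2 (0.0205) and with the GC content and length offset (0.0274). The membrane-anchored MMP inhibitor Reck had a log2FC of 0.24 ± 0.39 (SE). Furin and Reck are named for their roles, after their values were seen. Besides Spock1, the listed genes with a smaller edgeR adjusted p than Furin were all lower in male. These were Ctsk (log2FC −2.06, adjusted p = 0.0713), Tspan5 (−2.05, 0.136), Thsd4 (−1.51, 0.162) and Papln (−1.48, 0.165). Their male libraries all lay below their female libraries, as they did in 7.27% of all genes tested. Next to Furin stood Htra3 (log2FC 2.21, edgeR adjusted p = 0.219) and Plaur (1.64, 0.219). Both were higher in male, and their sexes did not overlap.

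Among 39 tested substrates 1 rose, none fell and 38 did not pass, with a median log2FC of −0.11. Cd44, the hyaluronan receptor that Mmp14 and Adam10 can shed, stood at 13.6, 9.59 and 11.1 CPM in male and 1.62, 2.46 and 1.64 CPM in female libraries, a log2FC of 2.58 ± 0.38 (SE, edgeR adjusted p = 0.0331). Leaving out any 1 library ended this call (adjusted p from 0.0530 to 0.281). Of the substrates that did not pass, Igfbp5 (log2FC 1.63, edgeR adjusted p = 0.0881) and Tgfa (−2.08, 0.0885) had the smallest adjusted p. The sexes did not overlap in either gene. Versican, the proteoglycan substrate of Adamts1, Adamts5 and Adamts9, comes from Vcan, named for that role after its values were seen. It had 1840, 330 and 386 CPM in male and 4018, 574 and 1762 CPM in female libraries. The groups overlapped, with a log2FC of −1.31 ± 0.94 (SE).

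Markers of cell types outside the mesenchyme were summed as well. The summed level of 9 endothelial markers was 168 to 333 CPM in male and 61.3 to 98.2 CPM in female libraries, most of it Kdr, and none of the 7 tested passed, while the defining gene Pecam1 was at most 1.43 CPM in male and 1.72 CPM in female. The 8 Sertoli cell markers summed to 71.6 to 132.7 CPM in male and 24.4 to 67.7 CPM in female libraries, and 3 of 8 rose (Sox9, Amh and Cst9). Cst8 and Nr5a1 had negative log2FC, −2.19 and −0.16, and their sexes overlapped. Among osteoblast markers, 2 of 5 tested rose (Sp7 and Ibsp), with sums of 250 to 348 CPM in male and 63.3 to 67.5 CPM in female libraries. Sp7 made up most of the male sum. Cst9, with 206 male and 2 female counts, and Ibsp, with 472 male counts and 1 female count, passed the filter only through the male libraries. Sums of 7 smooth muscle markers were 196 to 567 CPM in male and 46.5 to 150.5 CPM in female libraries. The smooth muscle myosin gene Myh11 went the other way, at 2.10, 0.494 and 1.05 CPM in male and 7.72, 3.88 and 7.68 CPM in female libraries. For neurons and Schwann cells they were 67.7 to 76.6 CPM in male and 15.4 to 30.3 CPM in female, and 1 of 4 tested rose. Duct epithelium markers summed to 151 to 501 CPM in male and 207 to 746 CPM in female libraries, and 1 of 8 tested fell. No marker passed for smooth muscle, for mesothelium (513 to 548 CPM in male, 591 to 720.2 CPM in female), for erythroid cells (3.25 to 6.33 CPM in male, 3.01 to 3.69 CPM in female) or for pregranulosa cells (275 to 552 CPM in male, 109 to 207 CPM in female). The pregranulosa sum was mostly Wnt4, which is also on the mesenchyme list, and all male libraries lay below all female libraries for Foxl2, Irx3 and Rspo1. Foxl2, the defining gene, was at 1.03, 2.62 and 1.98 CPM in male and 5.11, 16.5 and 7.04 CPM in female libraries. Leukocyte markers, whose cells are a usual source of Mmp9, Mmp12 and Adam8, summed to 7.50 to 12.7 CPM in male and 5.95 to 12.6 CPM in female libraries, with Ptprc at most 0.229 CPM in male and 0.514 CPM in female. The part of these markers in the differences of Adam12, Mmp19 and the other members was not tested.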

How the data were processed

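RNA sequencing with the TruSeq v2 kit gave raw counts per Ensembl gene, which the authors deposited with 5 summary lines in each library. The submitters' processing notes list mm9, TopHat, HTSeq and DESeq, with neither role nor version. For the annotation release and the counting strand no source used here gives a value. Counts outside genes were 3.53% to 18.2%, and counts on more than 1 gene 6.51% to 10.0%, of uniquely placed counts. These stayed out of library sizes and tests. Symbols (32919 of 37991 identifiers), chromosomes, length and GC content came from GENCODE M21 (GRCm38), so no coordinates are given.

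Computed here in R 4.3.3: genes were kept by filterByExpr, given TMM factors and put through edgeR 4.0.16 (robust quasi-likelihood, sex as the only term, two-sided), adjusted over 15227 genes. Fold changes are log2 male over female, and each standard error is the size of the log2 change divided by the root of its F statistic. Alternatives used DESeq2 1.42.0, limma-voom 3.58.1, other scalings and filters, a replicate block, a GC content and length spline offset with 5 degrees of freedom per term, and each library left out. The test was also tried on simulated counts drawn independently for each gene, without the GC content differences between replicates. No result given here rests on that trial. The text names members that passed, Mmp2, Mmp9, Mmp14, the TIMPs, the 3 members with the smallest p and the 2 with the highest CPM in each other role group, and members called by at least 3 alternatives that keep all libraries. The members, lists and rule were chosen with earlier results of these data known.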

Additional observations from a re-analysis of the deposited data

How the results depend on the processing

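The number of members called higher in male, 2 in the reported fit, was 2 or 3 under both other scalings, both other filters, limma-voom and edgeR without robust estimation. It was 8 with DESeq2, 7 with the GC content and length offset, 18 with a replicate block and 20 with both the block and the offset. Members called lower, none in the reported fit, came to 1 with the offset, 8 with the block and 8 with both. Leaving out 1 library gave 0 to 2 members higher and none lower. Over all genes, 128 were higher and 59 lower. DESeq2 gave 444 and 327, the offset 460 and 445, the block 1997 and 2167, and both 2069 and 2349, while leaving out 1 library gave 0 to 141 higher and 0 to 32 lower. With 0 calls by edgeR, 938 of 15867 genes without male replicate 3 and 884 of 15866 without female replicate 3 had an unadjusted p under 0.05. Without male replicate 1 there were 141 higher and 32 lower. The cause of these shifts was not tested.

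The labels give both sexes replicates 1 to 3, without saying that a number marks a shared litter or day. Deviations from the sex mean correlated at 0.93 for the replicate 1 pair, 0.85 for the replicate 2 pair and −0.07 for the replicate 3 pair over 15227 genes. Deviations from a mean of only 3 libraries are tied to each other, so these values are not independent. Whether the numbers pair the samples is not known. Male replicate 3 correlated best with female replicate 2, at 0.59. The block therefore stands only here. In it Mmp2 was among the members called higher (log2 fold change 0.60, edgeR adjusted p = 0.00857).

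Among the named genes, directions turned only in those far from the threshold. With the offset, Adamts10 was −0.0781 and Mmp9 −0.0496 in log2 fold change, and with the block and the offset −0.0813 and −0.0573. With 1 library left out, the log2 fold change ranged from −0.36 to 0.84 for Adam10, −0.45 to 0.18 for Adam11, −0.77 to 0.14 for Adam17, −0.82 to 1.04 for Adam5, −0.0885 to 0.33 for Adamts2, −0.11 to 0.35 for Mmp9, −0.13 to 0.44 for Timp2 and, outside the family, −0.0419 to 0.44 for Reck. Low counts are a further limit. Mmp19 rests on 279 male and 41 female counts, and 27 members could not be tested.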
